A study of Homo sapiens with 2 samples.

Results

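The kinesin superfamily genes were described in PLC/PRF/5 cells, a human hepatocellular carcinoma line, after treatment with JIB-04, a pan-inhibitor of the Jumonji histone lysine demethylases (KDMs). The members were the genes whose current NCBI symbol is KIF followed by a digit, and 43 of the 27685 genes in the deposited annotation met this rule. Of these, 39 were protein-coding and 4 were antisense RNAs. One library came from cells given 6 µM JIB-04 for 24 h, and 1 library came from control cells given DMSO, the solvent, for 24 h. The treatment field of the control sample reads untreated, whereas its title reads DMSO, and the control is called DMSO here. Both libraries came from the same line with no genetic change named in the labels, and poly(A) RNA was sequenced with strand kept. With 1 library per condition there was no replicate error, so no test was possible, and every difference compares these libraries only.

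Kinesins are motor proteins that hydrolyse ATP to walk along microtubules or to take microtubule ends apart. One set of kinesins works in cell division: these motors push spindle poles apart, align chromosomes and build the central spindle, where the cell is cut in cytokinesis. Another set carries vesicles, organelles and RNA through the cytoplasm at all stages of the cell cycle. Hepatoma cells divide, so both sets can be found in one culture. The coding members were sorted by known role into 13 mitotic, 13 transport and 6 ciliary or centriolar kinesins, with 7 others of mixed or less settled role.

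Levels are given as TPM, the length-normalized share of a transcript among all transcripts of a library, summed over the transcripts of a gene. A gene was described when it reached 1 TPM in either library, which held for 33 of the 43 members (32 coding genes and KIF23-AS1) and for 14450 genes in all. Differences are log2 ratios of TPM + 1, JIB-04 over DMSO, and a gene was called lower or higher when this ratio reached 2-fold. The added 1 TPM pulls the ratios of weakly expressed genes towards 0. Brackets give 95% intervals that cover counting error only, from fragment numbers estimated from the coverage of each transcript. The libraries held an estimated 28187793 (DMSO) and 23721989 (JIB-04) fragments on annotated transcripts. Over all described genes the median log2 ratio was -0.15, with 994 genes called lower and 865 called higher, so that 46.5% of the called genes were higher. When the JIB-04 library was scaled by 0.15 on the log2 scale to centre well expressed genes, the counts became 679 lower and 1108 higher, and 62.0% of the called genes were higher.

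The cell type was checked with marker genes. All 8 hepatocyte markers reached 1 TPM in at least one library, with TF at 381 TPM in DMSO and 422 in JIB-04, AFP at 131 and 151, and HNF4A at 71.9 and 72.3. SERPINA1 was at 284 and 209 TPM and TTR at 3.91 and 7.06. ALB was low for a liver cell, at 9.74 and 4.53 TPM, and APOA1 was at 1.34 and 0.99. The leukocyte marker PTPRC was listed at 0 in both libraries and CD3E stayed under 0.1 TPM, while CD68, which many cells other than leukocytes also express, was at 97.0 and 137 TPM. Of the endothelial markers CDH5 was listed at 0 in both libraries and PECAM1 was at 0.54 and 0.33 TPM. Of the fibroblast markers DCN stayed under 0.1 TPM, COL1A1 was at 16.0 and 10.6, and COL3A1 was at 1.22 and 0.77.

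Mitotic kinesins were lower in the JIB-04 library as a group, and transport kinesins were not. Among the 11 described mitotic kinesins, 8 were called lower and 0 called higher, against a background of 6.88% of all described genes called lower and 5.99% called higher. Among the 13 described transport kinesins, 0 were called lower and 1, KIF1A, was called higher. The median log2 ratio was -1.20 over the mitotic and 0.01 over the transport kinesins, beside -0.15 over all described genes. The summed level of the mitotic kinesins was 579 TPM in DMSO and 251 TPM in JIB-04, and that of the transport kinesins was 497 and 461 TPM. Mitotic kinesins therefore made up 47.7% of all coding kinesin TPM in DMSO and 30.9% in JIB-04, and transport kinesins made up 41.0% and 56.8%. In bulk RNA, fewer dividing cells and less RNA per dividing cell cannot be told apart.

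**Figure D1:**
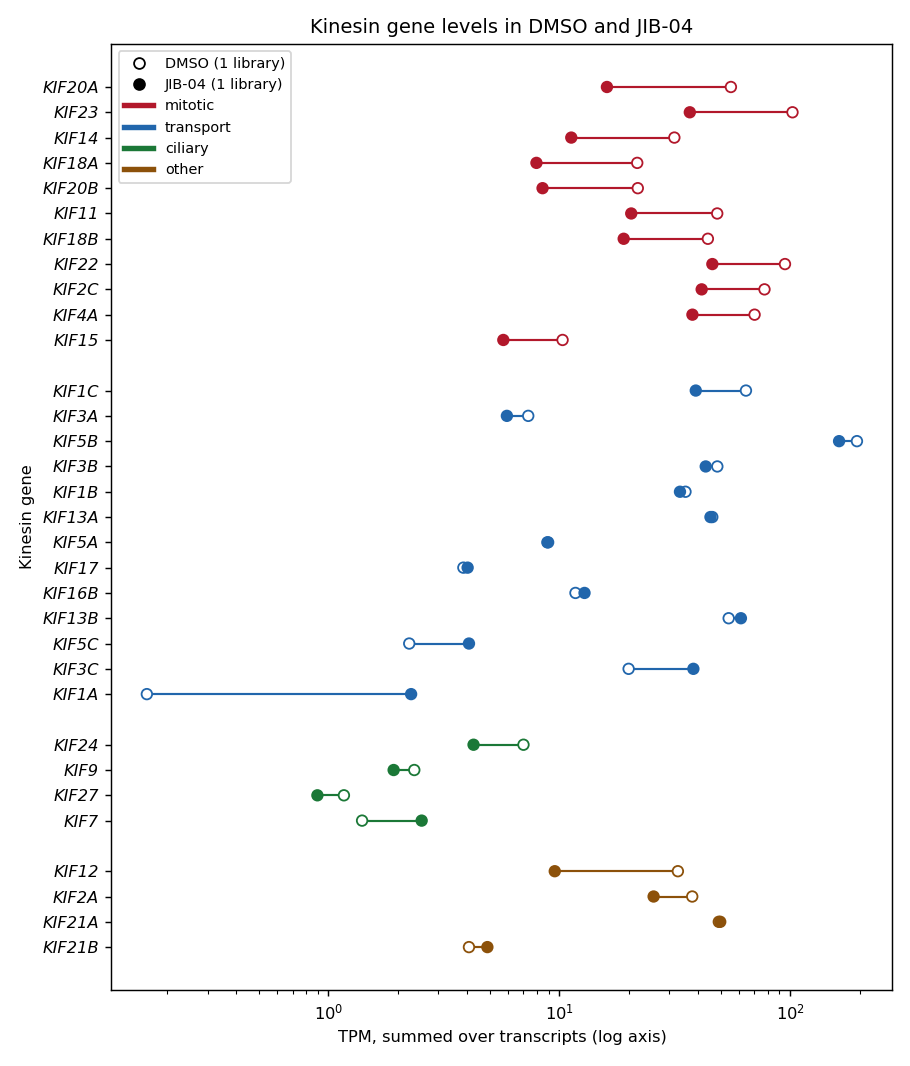
TPM of the 32 described coding kinesins on a log axis, with the DMSO library as open and the JIB-04 library as filled circles, coloured by role and ordered within each role by log2 ratio. Every mitotic kinesin has its JIB-04 circle to the left of its DMSO circle, whereas the transport kinesins lie on both sides, from KIF1C (64.4 and 39.1 TPM) to KIF1A (0.16 and 2.28 TPM).

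Promoter sequences, which the rule of choice did not use, were searched for 2 elements. Any part of these elements in the ratios was not tested. The cell cycle genes homology region (CHR, searched as TTTGAA or TTCGAA) and the CCAAT box are known as elements of promoters active in G2 and mitosis. Each was searched on both strands in RefSeq windows on GRCh38.p14 from 250 bases before to 50 bases after the start, and matches of the 2 motifs can share at most 1 base. Windows were given for 28 of the 32 described coding kinesins, and KIF5A, KIF13B, KIF21B and KIF27 had none. The stretches below run 5′ to 3′ on the strand of the gene and end at the base before the start, with CHR and CCAAT letters in capitals. KIF11 lies on the plus strand (chr10:92593060-92593129), as do KIF4A (chrX:70290034-70290103), KIF23 (chr15:69414279-69414348), KIF22 (chr16:29790681-29790750) and KIF20A (chr5:138179012-138179111). KIF18A (chr11:28108157-28108226) and KIF5B (chr10:32056426-32056575) lie on the minus strand. KIF20A is shown as the mitotic member with the lowest ratio, which had 2 CCAAT boxes and no CHR letters, and KIF5B as the one transport member with CHR letters.
KIF11: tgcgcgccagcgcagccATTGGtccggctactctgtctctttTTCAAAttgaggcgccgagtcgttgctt
KIF4A: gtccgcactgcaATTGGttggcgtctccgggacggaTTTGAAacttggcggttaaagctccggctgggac
KIF23: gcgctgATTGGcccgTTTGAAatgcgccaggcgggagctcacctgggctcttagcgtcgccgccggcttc
KIF22: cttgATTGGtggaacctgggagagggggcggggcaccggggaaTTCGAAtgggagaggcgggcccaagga
KIF18A: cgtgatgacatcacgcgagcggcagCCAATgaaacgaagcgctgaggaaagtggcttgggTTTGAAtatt
KIF20A: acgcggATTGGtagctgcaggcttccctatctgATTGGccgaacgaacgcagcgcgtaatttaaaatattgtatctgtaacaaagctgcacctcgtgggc
KIF5B: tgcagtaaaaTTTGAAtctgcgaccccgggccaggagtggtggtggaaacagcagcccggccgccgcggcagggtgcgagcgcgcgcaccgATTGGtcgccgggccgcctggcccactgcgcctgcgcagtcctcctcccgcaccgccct

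CHR letters were present in the windows of 9 of 11 mitotic kinesins, all but KIF20A and KIF2C, and in 1 of 11 transport kinesins with a window. The share was 15.1% of the 11101 described genes that had a window and 19.5% of all 27305 genes that had one. CCAAT letters were present in 9 of 11 mitotic and 4 of 11 transport kinesins, beside 43.3% of described genes. Both motifs were present in 8 of 11 mitotic and 1 of 11 transport kinesins, beside 6.29% of described genes. They were also present in 1 of 3 ciliary and 0 of 3 other kinesins with a window. The ciliary one was KIF24 (log2 ratio -0.61), and KIF12 (log2 ratio -1.67) had CCAAT but no CHR letters. Measured to the first base, the CHR letters began 28 bases before the start in KIF11, 34 in KIF4A, 35 in KIF15, 27 in KIF22, 55 in KIF23 and 10 in KIF18A. In KIF14, KIF18B and KIF20B they began after the start, at bases 2, 3 and 25. In KIF5B the CHR letters began 140 bases before the start, and in the second of the KIF22 windows they began 244 bases before it. Between the CCAAT box and the CHR letters there were 20 bases in KIF11, 19 in KIF4A, 4 in KIF23, 34 in KIF22 and 30 in KIF18A. A match describes the letters in a window and does not show that a factor bound there.

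Motors and binders of the central spindle, which act in cytokinesis, included the mitotic kinesins with the lowest ratios. KIF20A (chr5:137514417-137523404, hg19), which brings the chromosomal passenger complex to the central spindle, was at 55.4 TPM in DMSO and 16.1 TPM in JIB-04. Its log2 ratio was -1.72 [-1.85 to -1.59], the lowest of the described members. KIF23 (chr15:69706585-69740766), the motor of the centralspindlin complex, was at 102 and 36.8 TPM (log2 ratio -1.45 [-1.54 to -1.36]). KIF14, which acts with citron kinase in the final cut, was at 31.5 and 11.3 TPM (log2 ratio -1.41). KIF20B, also a cytokinesis motor, was at 21.9 and 8.47 TPM (log2 ratio -1.27), and was just within 2-fold, at -0.998, with 5 TPM added in place of 1. KIF4A, which binds chromosome arms and sets the length of the central spindle with PRC1, was at 70.2 and 37.8 TPM, and its log2 ratio of -0.88 was within 2-fold.

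Motors that align chromosomes or act on microtubule ends had log2 ratios between -1.34 and -0.89. KIF18A, which dampens chromosome movements at the metaphase plate, was at 21.8 and 7.97 TPM with a log2 ratio of -1.34 [-1.53 to -1.17]. KIF18B, which shortens astral microtubules, was at 44.1 and 19.0 TPM (log2 ratio -1.17), and its most abundant transcript alone was within 2-fold, at -0.92. KIF22, a chromosome-bound motor that pushes chromosome arms outward, was at 95.1 and 46.1 TPM. Its log2 ratio of -1.03 [-1.14 to -0.92] was just past 2-fold, and was -0.88 after scaling and -0.92 after quantile normalization, both within 2-fold. KIF2C, a microtubule depolymerase of the centromere, was at 77.5 and 41.4 TPM with a log2 ratio of -0.89.

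The spindle-bipolarity motors KIF11 and KIF15 differed from each other. KIF11 (chr10:94352825-94415152, hg19), the tetrameric motor that slides spindle microtubules apart and the target of several antimitotic compounds, was at 48.4 TPM in DMSO and 20.5 in JIB-04. Its log2 ratio was -1.20 [-1.30 to -1.10]. KIF15, which can back up KIF11, was at 10.3 and 5.73 TPM, with a log2 ratio of -0.75 [-0.94 to -0.57], the smallest difference among the described mitotic members. Intervals of all 11 described mitotic kinesins lay below 0, and all 11 ratios lay below the all-gene median of -0.15. Over all 14450 described genes, 8711 ratios were negative, and intervals were not counted. The remaining mitotic members were not described: KIF4B, a near-copy of KIF4A whose reads are hard to separate from it, was at 0.12 and 0.06 TPM, and KIF2B was listed at 0 in both libraries.

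**Figure D2:**
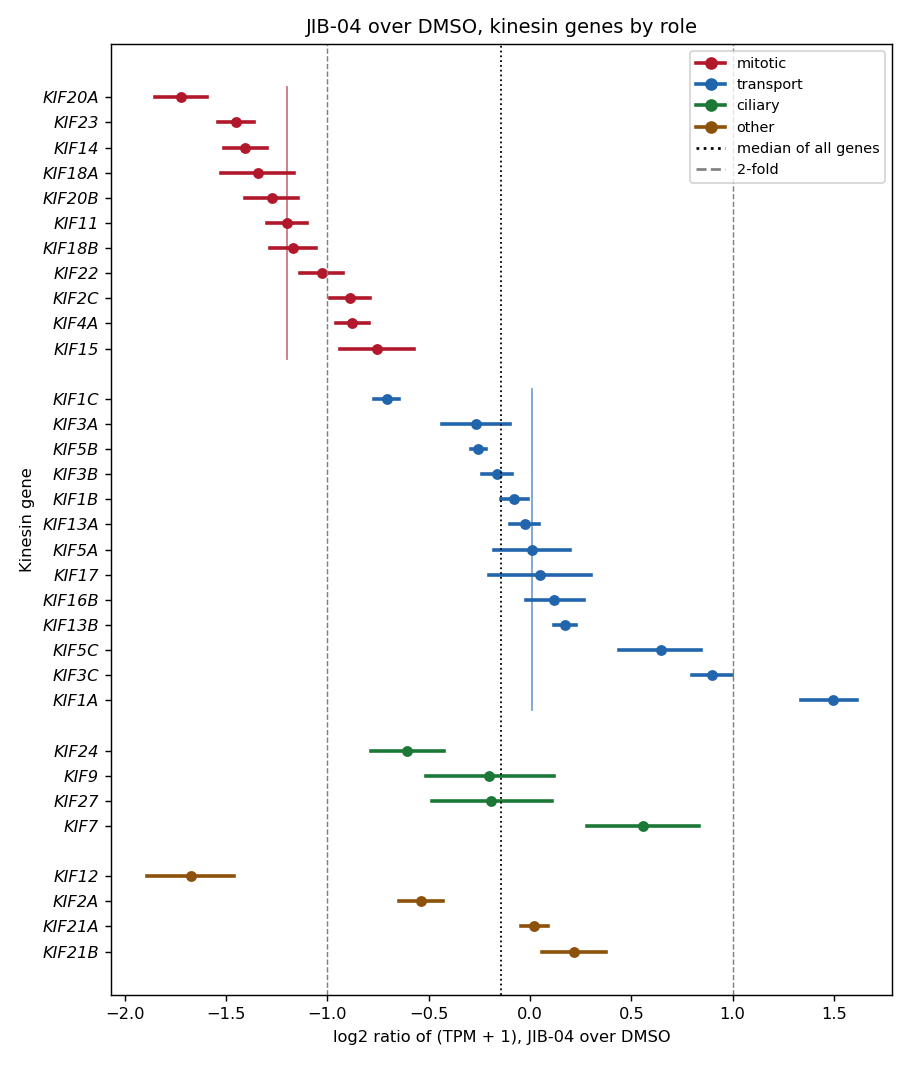
Log2 ratio of TPM + 1, JIB-04 over DMSO, for the 32 described coding kinesins, with bars for 95% intervals that cover counting error only (1 library per condition). Thin coloured lines mark the medians of the mitotic (-1.20) and transport (0.01) kinesins, the dotted line the median of all described genes (-0.15) and dashed lines 2-fold. All 11 mitotic points lie to the left of every transport point, while the intervals of KIF15 and KIF1C overlap.

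The conventional kinesin heavy chains, which carry cargo with the kinesin light chains, were mostly similar in both libraries. KIF5B, the form found in most tissues and the most abundant member, was at 195 TPM in DMSO and 163 in JIB-04, with a log2 ratio of -0.26 [-0.29 to -0.22]. KIF5A, mainly a neuronal form, was at 8.89 and 8.96 TPM (log2 ratio 0.01). KIF5C, also mainly neuronal, was at 2.24 and 4.07 TPM (log2 ratio 0.64 [0.44 to 0.84]). In KIF5C the ratio differed along the transcript: it was 1.03 in the 5′ portion and 0.17 in the 3′ portion of the main transcript, divided at its midpoint.

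The kinesin motors of the heterotrimeric type, which move cargo in cilia and axons, also differed among themselves. KIF3A was at 7.35 and 5.94 TPM (log2 ratio -0.27) and its partner KIF3B was at 48.4 and 43.1 TPM (log2 ratio -0.16). KIF3C (chr2:26149455-26205443, hg19), a form best known from neurons, was higher in JIB-04, at 20.0 TPM in DMSO and 38.1 in JIB-04. Its log2 ratio was 0.90 [0.80 to 1.00], within 2-fold as deposited and 1.05 after either scaling. Both portions of its single transcript gave similar ratios, 0.91 and 0.89.

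The vesicle motors related to KIF1A held both ends of the transport set. KIF1A (chr2:241653181-241759725, hg19), which carries synaptic vesicle precursors in neurons, was at 0.16 TPM in DMSO and 2.28 in JIB-04. This rested on an estimated 18 and 200 fragments. The TPM ratio without an added constant was 13.9 [8.57 to 23.9], and the ratio of TPM + 1 was 2.82 (log2 interval 1.34 to 1.61). The call rested on the low DMSO value: with 5 TPM added in place of 1 the log2 ratio was 0.50. KIF1C (chr17:4901243-4931694, hg19), a vesicle motor of many cell types, had the lowest ratio of the transport kinesins, at 64.4 and 39.1 TPM (log2 ratio -0.71 [-0.77 to -0.65]). KIF1B, a motor for mitochondria and vesicles, was at 35.2 and 33.4 TPM (log2 ratio -0.08).

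The endosomal motors showed small differences. KIF13A, which moves recycling endosomes, was at 46.0 and 45.2 TPM (log2 ratio -0.03), and KIF13B was at 54.2 and 61.3 TPM (log2 ratio 0.17). KIF16B, a motor of early endosomes, was at 11.8 and 12.9 TPM (log2 ratio 0.12). KIF17, known from dendrites and cilia, was at 3.85 and 4.01 TPM (log2 ratio 0.05). Over the 13 transport kinesins, 6 log2 ratios were negative and 7 positive, with 5 intervals below 0 and 4 above it. Over all 14450 described genes, 8711 ratios were negative and 5739 positive. Intervals were not counted over all genes, so the interval counts have no background to be judged against. After scaling, KIF1B and KIF13A moved from below to above 0, at 0.07 and 0.12, and stayed within 2-fold.

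**Figure D3:**
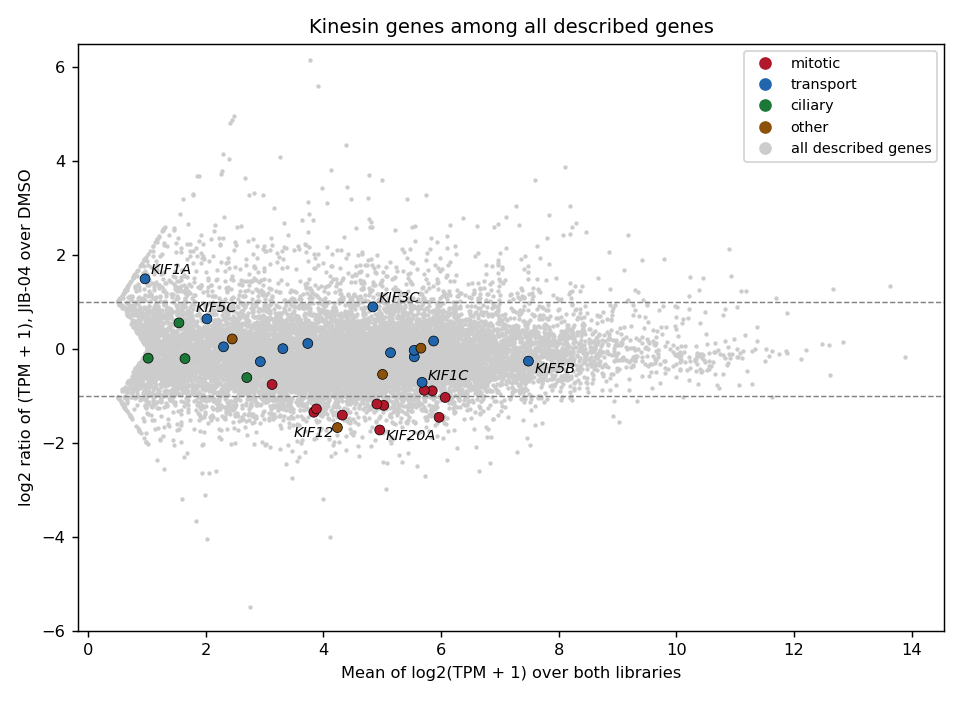
Log2 ratio of TPM + 1, JIB-04 over DMSO, against the mean log2(TPM + 1) of both libraries for all 14450 described genes (grey) and the 32 described coding kinesins (coloured by role), with dashed lines at 2-fold. The mitotic kinesins lie in the lower part of the cloud at middle levels, and KIF1A lies at the weakly expressed end.

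Ciliary kinesins were weakly expressed, and none of the 4 described reached 2-fold. Over all described genes, 6.88% were called lower and 5.99% higher, so a count over 4 genes does not set the ciliary kinesins apart. KIF24, which acts at the centriole to hold back cilium growth, was at 7.0 and 4.26 TPM (log2 ratio -0.61 [-0.79 to -0.42]). KIF7, a regulator of Hedgehog signalling at the cilium tip, was at 1.40 and 2.54 TPM (log2 ratio 0.56 [0.28 to 0.83]). KIF9, a motor of motile cilia, was at 2.36 and 1.92 TPM (log2 ratio -0.20), and KIF27, a relative of KIF7, was at 1.17 and 0.90 TPM (log2 ratio -0.19), both with intervals that include 0.

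Among the other kinesins, KIF12 stood apart. KIF12 (chr9:116853918-116861337, hg19), an epithelial kinesin of liver and kidney in which variants are linked to inherited cholestasis, was at 32.7 TPM in DMSO and 9.57 in JIB-04. Its log2 ratio was -1.67 [-1.89 to -1.46], close to that of KIF20A. Among the described coding members it was the only one outside the mitotic set that was at least 2-fold lower. KIF2A, a microtubule depolymerase of neurons and spindle poles, was at 37.7 and 25.6 TPM (log2 ratio -0.54). KIF21A and KIF21B, which restrain microtubule growth, were at 49.1 and 49.8 TPM (log2 ratio 0.02) and at 4.07 and 4.89 TPM (log2 ratio 0.22). Of the 8 hepatocyte markers, 1 was called lower, APOB, at 103 and 32.9 TPM (log2 ratio -1.62), and 0 were called higher. Over all described genes, 6.88% were called lower and 5.99% higher. The log2 ratios of the other markers were -0.96 for ALB, -0.44 for SERPINA1, -0.23 for APOA1, 0.01 for HNF4A, 0.15 for TF, 0.20 for AFP and 0.72 for TTR, and their part in the KIF12 value was not tested. Counting KIF2A as mitotic gave a mitotic median of -1.18.

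The 10 members that were not described lay at or below 0.84 TPM in both libraries, with at most 25 estimated fragments. The 7 coding genes among them were KIF4B, KIF2B, KIF6, KIF19, KIF25, KIF26A and KIF26B, and the 3 antisense RNAs were KIF9-AS1, KIF25-AS1 and KIF1C-AS1. Just inside the threshold, KIF23-AS1 was at 1.12 and 1.04 TPM (log2 ratio -0.05) and KIF27 at 1.17 and 0.90 TPM. Just outside it, KIF9-AS1 was at 0.84 and 0.38 TPM. None of the members shared exonic bases with another gene on the same strand.

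The ratio was also computed in the 5′ and 3′ portions of each main transcript. In genes with several forms, both portions rest on the same division of shared reads by the authors. They are not independent of each other there. In KIF23 the portions were at -1.96 and -1.93, beside -1.45 for the gene. All 11 mitotic kinesins had log2 ratios below 0 in both portions of their main transcript, with medians of -1.27 in the 5′ and -1.07 in the 3′ portion. The transport kinesins had medians of -0.08 and 0.06, with 2 members of opposite sign in the portions. KIF5B was at -0.11 in the 5′ and -0.52 in the 3′ portion, and KIF20B at -1.38 and -0.96.

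**Figure D4:**
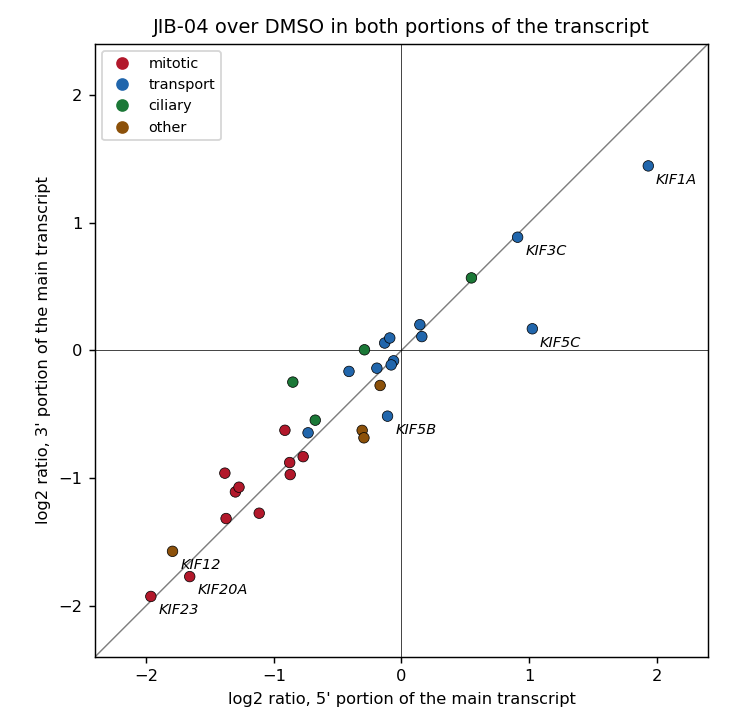
Log2 ratio, JIB-04 over DMSO, in the 3′ portion against that in the 5′ portion of the main transcript for each of the 32 described coding kinesins, coloured by role, with the diagonal marking equal ratios. The mitotic kinesins lie in the lower left quadrant, and the largest gap between portions among them is 0.42 (KIF20B). The largest gap is 0.39 among the kinesins of other role (KIF21B), 0.60 among the ciliary (KIF27) and 0.86 among the transport kinesins (KIF5C). KIF27 rests on an estimated 65 fragments in DMSO and 40 in JIB-04, and KIF5C on 186 and 278.

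The estimated shares of the transcript forms differed between the libraries in KIF23. The 22-exon form, known as MKLP1, was at 75.3 TPM in DMSO and 18.8 in JIB-04, a log2 ratio of -1.94 [-2.06 to -1.82]. The 23-exon form, known as CHO1, was at 26.3 and 15.7 TPM (log2 ratio -0.70 [-0.84 to -0.57]). Its share of the gene was 25.6% in DMSO and 42.8% in JIB-04, while that of the 22-exon form was 73.5% and 51.2%. The exon that the 23-exon form has and the 22-exon form lacks, exon 18 of 312 bases (chr15:69733107-69733418, hg19), had a coverage of 61.8 in DMSO and 25.1 in JIB-04, or 18.4% and 25.7% of the coverage of exon 17. The coverage ratio of exon 18, 0.41, was above that of 20 of the 22 other exons, whose median was 0.29 and whose range was 0.18 to 0.44. Coverage was not corrected for library size, so these ratios are not on the scale of TPM ratios. Exon 18 rested on an estimated 95 and 39 fragments. Its ratio lay within the range of the other exons, and no interval was computed for it. Whether the exon coverage bears out the difference in shares was therefore not tested. The levels and shares of the KIF23 forms rest on the authors' division of shared reads among transcripts, which their intervals do not cover. A minor form of 21 exons also carries exon 18 and was at 0.85 TPM in DMSO and 2.21 in JIB-04, or 0.83% and 6.00% of the gene, so the coverage of exon 18 is not that of the 23-exon form alone.

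**Figure D5:**
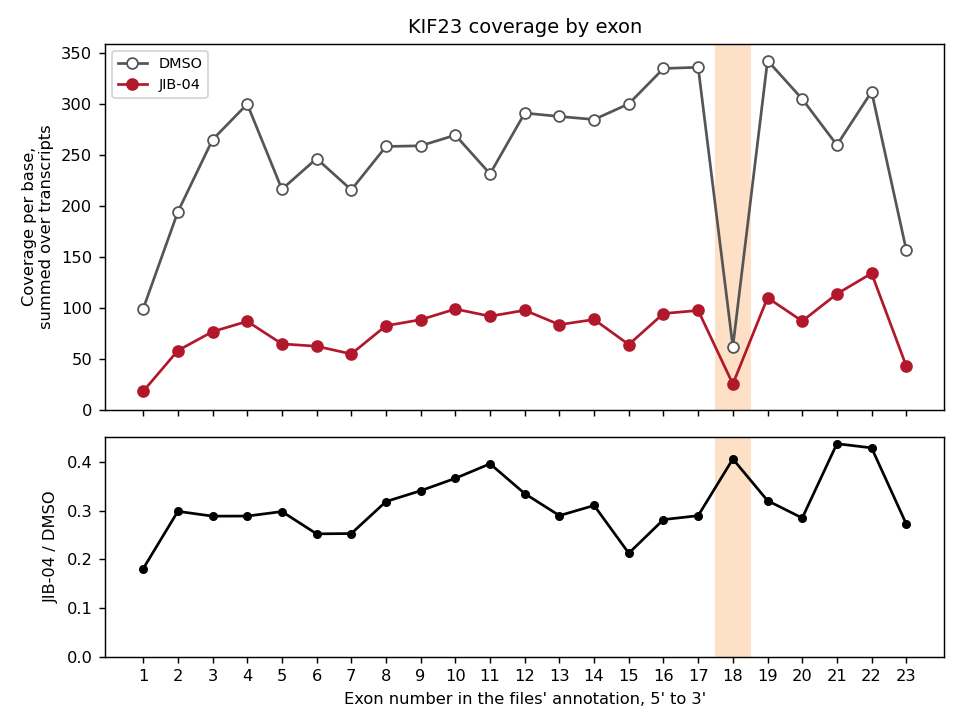
Coverage per base of the 23 KIF23 exons, summed over transcripts, in DMSO and JIB-04 (upper panel), and the JIB-04 over DMSO ratio of that coverage (lower panel), with exon 18 shaded. Exon 18 has the lowest DMSO coverage of all exons. Its ratio of 0.41 is above the median of 0.29 of the other exons and within their range of 0.18 to 0.44. Coverage was not corrected for library size.

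Other kinesins had differences between forms that likewise rest on the authors' division of shared reads among transcripts, here with no exon value computed. The 16-exon form of KIF18B was at 9.55 TPM in DMSO and 1.25 in JIB-04, or 21.7% and 6.58% of the gene, and its 15-exon form was at 34.5 and 17.8 TPM. Minor forms of KIF14 (4.54 TPM in DMSO) and KIF20B (2.16 TPM in DMSO) were listed at 0 in JIB-04. The long and short forms of KIF1B, which carry different tails, had similar shares, with the 47-exon form at 59.0% and 61.3%. For KIF1A, 2.27 of the 2.28 TPM in JIB-04 came from a 47-exon form listed at 0 in DMSO. KIF21B had different leading forms in the libraries at similar gene levels, with a 34-exon form at 3.43% and 65.7% of the gene.

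Kinesins whose names fall outside the rule were set beside the members. CENPE, the kinetochore motor that moves chromosomes to the metaphase plate, was at 23.7 and 7.66 TPM (log2 ratio -1.51 [-1.63 to -1.40]). KIFC1, a minus-end motor that focuses spindle poles, was at 99.3 and 56.1 TPM (log2 ratio -0.81). KIFC3, a minus-end motor of epithelial junctions and the Golgi, was at 96.8 and 58.6 TPM (log2 ratio -0.71). KIFC2 was at 71.3 and 73.3 TPM (log2 ratio 0.04). CENPE was therefore the 1 of 4 that was at least 2-fold lower, beside 6.88% of all described genes.

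The listed genes whose proteins work with the mitotic kinesins had RNA ratios similar to those of the mitotic kinesins. This list, like the others, was chosen with earlier results of these data known, so its counts are not an independent check. Of 13 spindle partners, 9 were called lower and 0 higher, beside 6.88% and 5.99% of all described genes. The median log2 ratio was -1.07, beside -0.15 over all described genes. The lowest were HMMR, a spindle pole protein, at 38.4 and 11.1 TPM (log2 ratio -1.71), and BIRC5, the survivin subunit of the chromosomal passenger complex that KIF20A carries, at 89.1 and 33.7 TPM (log2 ratio -1.38). The highest were AURKA, the spindle pole kinase, at 241 and 147 TPM (log2 ratio -0.71), and CIT, the citron kinase that binds KIF14, at 21.9 and 11.9 TPM (log2 ratio -0.83). These genes are also used in dividing cells, and the part that a different share of dividing cells had in the mitotic kinesin values was not tested.

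Partners of the transport kinesins had a median above 0. Of 17 described light chains and cargo adaptors, 0 were called lower and 2 higher, beside 6.88% and 5.99% of all described genes. The median log2 ratio was 0.29, beside -0.15 over all described genes. KLC3, a kinesin light chain, was at 3.38 and 13.5 TPM (log2 ratio 1.72 [1.41 to 2.04]). MAPK8IP3, an adaptor that links kinesin to vesicles, was at 20.6 and 47.4 TPM (log2 ratio 1.16 [1.07 to 1.25]). At the low end were RHOT2, a mitochondrial adaptor, at 66.5 and 50.6 TPM (log2 ratio -0.39), and KIFBP, which binds and blocks kinesin motor domains, at 45.3 and 37.3 TPM (log2 ratio -0.27).

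Dynein and dynactin, the motor and cofactor that move cargo in the other direction, served as a comparison outside the kinesins. Of 25 genes, 23 were described, and 0 were called lower and 0 higher, beside 6.88% and 5.99% of all described genes. The median log2 ratio was -0.05, beside -0.15 over all described genes. NDE1, a dynein regulator used in mitosis and in neural progenitors, was lowest at 21.7 and 11.6 TPM (log2 ratio -0.85), followed by the dynactin subunit DCTN3 at 114 and 67.9 TPM (log2 ratio -0.73). NDEL1, the close relative of NDE1, was highest at 52.0 and 88.9 TPM (log2 ratio 0.76), and the dynein light chain DYNLRB1 was at 475 and 790 TPM (log2 ratio 0.73).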

How the data were processed

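RNA sequencing of 1 DMSO and 1 JIB-04 library of PLC/PRF/5 cells was used. Per the file headers, the authors ran StringTie 1.3.3b on HISAT alignments with an hg19 RefSeq annotation, keeping strand. HISAT2 2.0.5, Trimmomatic 0.32, Bowtie2 2.2.6 and FastQC 0.11.5 are listed in the notes of the submitters with no roles. The deposited files list coverage, FPKM and TPM per transcript, with no read counts. TPM was summed per Entrez gene ID (27685 genes, of which 27559 had a RefSeq symbol), and the log2 ratio of TPM + 1 was taken. Fragment numbers came from the aligned bases of a transcript (its coverage and length) divided by 202 bases (2 mates of 101), the commonest aligned base number of weakly covered transcripts in each library. Intervals are exact conditional binomial 95% intervals and cover counting error only. TPM is relative, so a change in total RNA is not seen.

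Members and lists were chosen with earlier results of these data known. Every described member is named, and from each other list the 2 highest and 2 lowest ratios with a mean of at least 5 TPM. Alternatives were other pseudocounts, filters, scalings, FPKM, single transcripts, transcript portions and fold thresholds. The script was tested on simulated data. Python 3.11.15, pandas 2.3.3, numpy 2.4.6, SciPy 1.17.1 and matplotlib 3.10.9 were used.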

Additional observations from a re-analysis of the deposited data

How the results depend on the processing

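The median log2 ratio ranged from -1.27 to -1.03 for the mitotic and from -0.08 to 0.15 for the transport kinesins over the alternatives, and their difference from -1.24 to -1.04. The count of 8 mitotic kinesins at least 2-fold lower was 6 to 8 over the other 2-fold settings, 11 at 1.5-fold and 1 at 3-fold. The calls lost were those of KIF22 (pseudocount of 5 and both scalings), KIF18B (most abundant transcript and both of its portions) and KIF20B (pseudocount of 5 and 3′ portion). The count of 1 transport kinesin at least 2-fold higher was 0 with a pseudocount of 5, with a minimum of 5 TPM, with FPKM and at 3-fold. It was 2 with either scaling (KIF1A and KIF3C) and with the 5′ portion (KIF1A and KIF5C), and 3 at 1.5-fold. The count of 0 transport kinesins at least 2-fold lower was 1 at 1.5-fold (KIF1C). Quantile normalization gave 758 lower and 1006 higher genes. No call turned direction. 9 described members changed sign under some setting, all within 2-fold. No paired analysis was possible because each condition had 1 library. Depth limits KIF1A, KIF27, KIF9 and KIF7, at 18 to 98 estimated fragments in DMSO.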
